A study of Homo sapiens with 8 samples.

Results

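The circadian clock genes examined here were PER1, PER2, PER3, CRY1, CRY2, BHLHE40, NR1D1, NR1D2, CLOCK and DBP, a set chosen by gene symbol. The choice was made with earlier results of these data known. All 10 were among the 13036 genes in the deposited table, and all 10 passed the filter on low values that left 13028 genes for testing. The RNA came from LN229-TAZ(4SA) cells, a line of human glioblastoma origin named for a form of TAZ, the Hippo pathway co-activator encoded by WWTR1. There were 4 groups of 2 libraries: cells held with AF at 1 µM and without glucose for 7 h, regular culture for 7 h, AF without glucose for 1 h, and regular culture for 1 h. Cells given AF without glucose are called treated, and regular culture had no AF. The labels give AF only by that abbreviation, and the series title concerns inhibition of thioredoxin reductase 1. AF and glucose loss were applied together, so the effect of either alone cannot be told apart. All groups share the modified line, and the labels give no unmodified parent and do not say whether the line is 1 clone. The comparisons address how the cells respond early and late to AF with glucose deprivation.

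The genes of the table held 27731776 to 45811965 reads in a library, and levels are given as CPM, reads relative to library size on the scaling of the deposited values. The table's headings name a group without a replicate number, so A and B stand here for a group's libraries. Separate cultures are not stated in the labels, so the p-values cover the spread of these libraries alone, and that spread may be technical. The libraries of a pair differed by more than counting error (chi-square 2.79 to 3.62 per degree of freedom), and each was counted as 1 sample. WWTR1 stood between 243 and 416 CPM in all 8 libraries, and its transgene reads cannot be told from the endogenous ones. Of 12 markers fixed for the line, 8 were in the table. NES, VIM, CD44 and FN1 were high, and GFAP was at 1.14 CPM or less on average in every group. Group means ran from 93.8 to 266 CPM for S100B, 19.7 to 125 CPM for SOX2 and 6.83 to 16.5 CPM for OLIG2. SOX9, AQP4, SLC1A3 and CHI3L1 were not among the genes listed. Of 18 markers of other cell types, 8 were listed, and their summed level was 408 to 411 CPM in treated cells at 7 h, 185 CPM in regular culture at 7 h, 360.3 to 368 CPM in treated cells at 1 h and 327 to 351 CPM in regular culture at 1 h. MAP2 stood between 70.9 and 167 CPM. The markers PTPRC, AIF1, CD3E, PECAM1, CDH5, EPCAM, CDH1, MOG, HBB and HBA1 were looked for by symbol and were not among the genes listed. The part of other cells in the results below was not tested. In bulk RNA, fewer cells expressing a gene and less RNA per cell cannot be told apart.

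The mammalian clock is a transcriptional feedback loop. CLOCK pairs with BMAL1 and binds E-boxes before the PER, CRY, NR1D and DBP genes. PER and CRY proteins then return to the nucleus and repress CLOCK and BMAL1, while NR1D1 and NR1D2, the haem-binding nuclear receptors REV-ERB alpha and beta, repress BMAL1. BHLHE40 also represses at E-boxes, and DBP is an activator that binds D-boxes in output genes. PER1 and PER2 are also known as genes that hormones, serum and cAMP signals induce quickly in cultured cells.

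RefSeq start sites (GRCh38.p14) were found for all 10 genes, in 14 windows of 250 bases before a start. The windows were searched on both strands for the E-box CACGTG, the E'-box CACGTT, the D-box TTATGTAA or TTACGTAA, the REV-ERB and ROR element (AAN followed by TAGGTCA or TGGGTCA), the cAMP response element TGACGTCA and the heat shock element (GAA, TTC and GAA, or TTC, GAA and TTC, with NN between neighbours). An E-box or E'-box lay in a window of 8 of the 10 genes, all but PER3 and DBP, against 12.7% of 27305 genes with such windows. By windows, 8 of 14 held one, against 10.6% of 35116 windows. The other motifs were rarer in all windows, at 0.94% for the D-box, 0.31% for the REV-ERB and ROR element, 1.65% for the cAMP response element and 0.441% for the heat shock element. The last 2 were not found in the clock gene windows, which says only that those letters are not in these 250 bases. No matches overlapped each other. The windows of PER1, PER2, NR1D1, NR1D2 and CLOCK are shown as examples. At 7 h the period and NR1D genes were higher in treated than in regular cells, and CLOCK was lower. The matches of PER3, CRY1, CRY2 and BHLHE40, which were higher too, are given by position in the map of motifs. The sequences shown run 5′ to 3′ on the gene's strand, exon bases are left out, and capitals mark the matches.
PER1: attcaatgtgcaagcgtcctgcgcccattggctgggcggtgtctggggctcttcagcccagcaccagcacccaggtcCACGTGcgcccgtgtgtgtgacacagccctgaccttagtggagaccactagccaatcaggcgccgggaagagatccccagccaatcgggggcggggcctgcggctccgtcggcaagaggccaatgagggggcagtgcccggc
PER2: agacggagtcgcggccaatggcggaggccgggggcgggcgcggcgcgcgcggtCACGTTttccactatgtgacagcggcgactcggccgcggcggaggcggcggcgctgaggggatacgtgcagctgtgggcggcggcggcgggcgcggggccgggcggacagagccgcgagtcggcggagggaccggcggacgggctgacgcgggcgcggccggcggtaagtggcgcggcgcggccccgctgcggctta
NR1D1: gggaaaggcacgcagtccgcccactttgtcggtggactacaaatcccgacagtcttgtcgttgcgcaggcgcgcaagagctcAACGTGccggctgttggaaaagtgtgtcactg
NR1D2: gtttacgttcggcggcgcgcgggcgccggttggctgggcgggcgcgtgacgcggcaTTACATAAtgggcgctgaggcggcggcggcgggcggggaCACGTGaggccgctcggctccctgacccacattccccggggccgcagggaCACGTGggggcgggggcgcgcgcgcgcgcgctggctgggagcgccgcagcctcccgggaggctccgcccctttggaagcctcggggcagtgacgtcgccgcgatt
CLOCK: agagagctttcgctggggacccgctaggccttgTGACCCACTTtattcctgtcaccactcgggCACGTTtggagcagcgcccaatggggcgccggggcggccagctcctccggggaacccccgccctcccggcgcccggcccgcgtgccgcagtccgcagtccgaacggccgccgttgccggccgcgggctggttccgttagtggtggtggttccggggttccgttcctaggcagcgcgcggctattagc
The PER1 stretch lies at chr17:8152436-8152654 on the minus strand, with an E-box 173 to 168 bases before the start. The PER2 window is chr2:238288611-238288860 on the minus strand, and its E'-box lies 197 to 192 bases before the start. That start lies within the PER2 gene (chr2:238244044-238300065) and not at its 5′ end. NR1D1 is shown at chr17:40100726-40100839 on the minus strand, with an E'-box 168 to 163 bases before the start. The NR1D2 window, chr3:23945871-23946120 on the plus strand, lies before the second of 2 listed starts and holds 2 E-boxes and a D-box. CLOCK is shown at chr4:55545933-55546182 on the minus strand, where a REV-ERB and ROR element and an E'-box were found. This window lies before the inner of 2 listed CLOCK starts, and the window before the outer start held no match. These matches are letters in the reference and were not measured as binding sites.

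**Figure D1:**
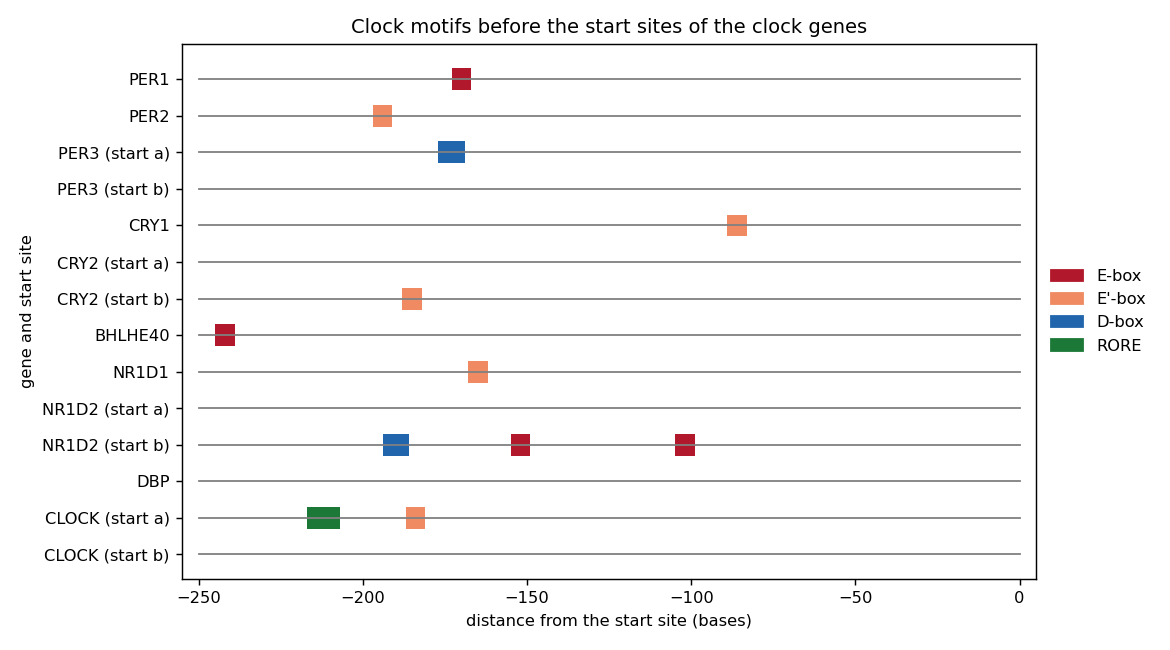
Motif matches in the 250 bases before each RefSeq start of the 10 clock genes, by distance from the start site in bases, with 1 line per start. E-boxes or E'-boxes lie in 8 of 14 windows, and the D-box and the REV-ERB and ROR element in 3 windows, of PER3, NR1D2 and CLOCK.

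At 7 h, treated cells held more of most clock transcripts than regular culture. 9 of 10 genes rose and CLOCK fell, where 40.5% of all tested genes were called higher and 41.1% lower (24.1% and 58.2% under scaling of libraries to their summed reads). Because so many genes changed at 7 h, the size is the more informative count. 8 of 10 were at least 2-fold higher, against 10.6% of all tested genes, and none was at least 2-fold lower (11.5%). The median log2 change of the 10 genes was 1.58, against -0.01 over all tested genes. Since the set was chosen with earlier results known, these counts and medians are a description and not a test of the set. At 1 h the same comparison split the genes. PER3, NR1D1 and NR1D2 were called higher (17.7% of all genes) and PER1, PER2, CRY1 and BHLHE40 lower (20.7%; 30.2% and 14% of all genes under that scaling), and none changed 2-fold (1.1% higher and 2.03% lower of all genes). CRY2, CLOCK and DBP did not pass at 1 h.

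**Figure D2:**
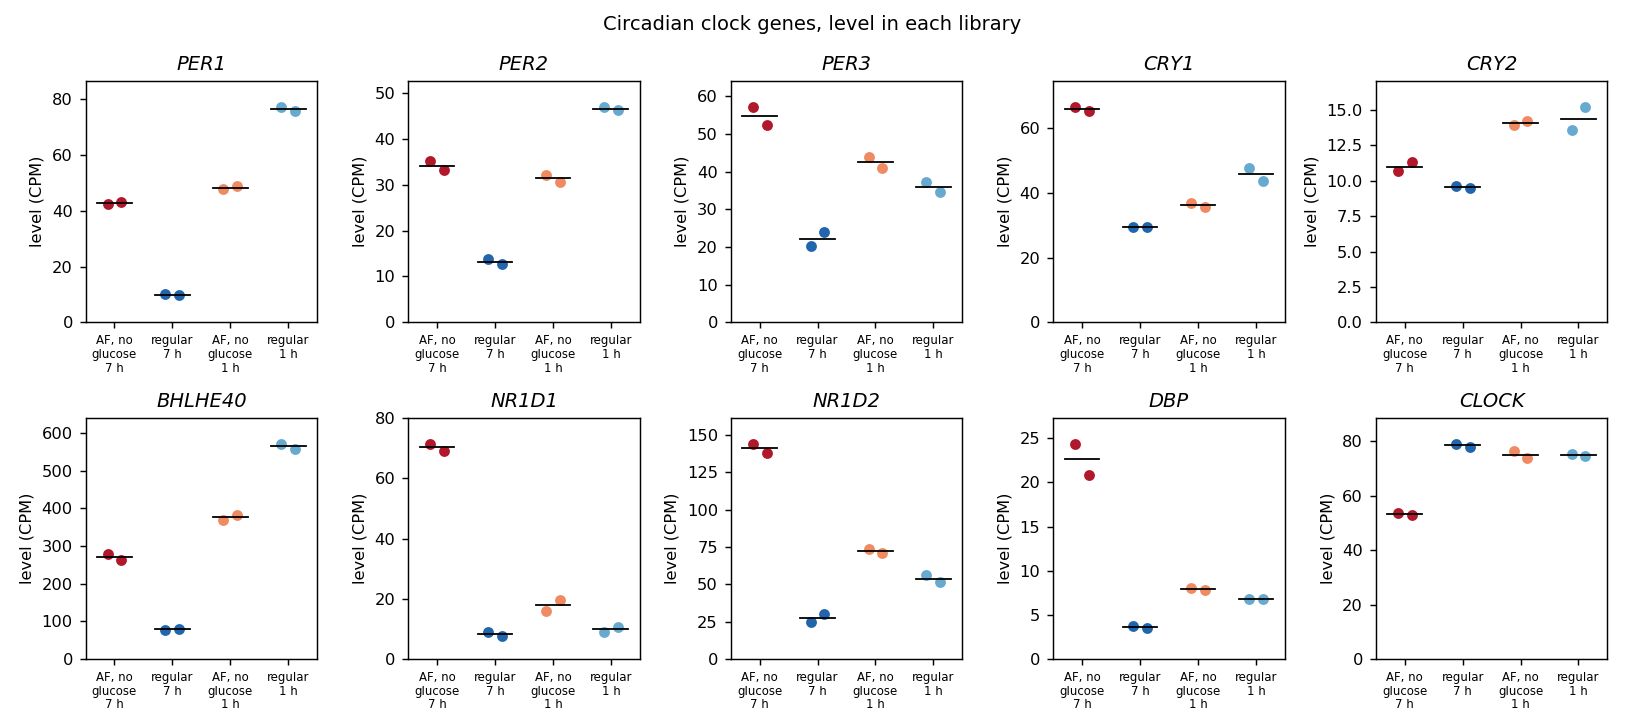
Levels of the 10 clock genes in CPM, with 1 panel per gene, 1 point per library and a line at the mean of the 2 libraries of each group. PER1, PER2, BHLHE40 and, on average, CRY2 are highest in regular culture at 1 h and lowest in regular culture at 7 h. PER3, CRY1, NR1D1, NR1D2 and DBP are highest in treated cells at 7 h.

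The period genes encode the repressors that accumulate through the cycle. PER1 (chr17:8140472-8152404, minus strand) stood at 42.6 and 43.3 CPM in treated cells at 7 h, 10.2 and 9.75 CPM in regular culture at 7 h, 47.7 and 48.8 CPM in treated cells at 1 h, and 77.3 and 75.8 CPM in regular culture at 1 h. The 4 groups did not overlap, and the order from high to low was regular 1 h, treated 1 h, treated 7 h and regular 7 h. The log2 change of treated against regular cells was 2.10 (SE 0.05; limma adjusted p = 2.85e-18) at 7 h and -0.67 (SE 0.05; adjusted p = 1.48e-09) at 1 h. In time, PER1 differed by -0.17 between 7 h and 1 h in treated cells and by -2.93 in regular culture, the 37th lowest log2 change of 13028 genes.

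PER2 (chr2:238244044-238300065, minus strand), which acts with PER1 in the repressor complex, followed the same order except that the treated groups changed places. It had 35.2 and 33.2 CPM in treated cells at 7 h, 13.8 and 12.6 CPM in regular culture at 7 h, 32.1 and 30.7 CPM in treated cells at 1 h, and 47.0 and 46.2 CPM in regular culture at 1 h. Libraries of different groups did not overlap, but the treated groups lay close together, and their difference of 0.12 log2 units did not pass (limma adjusted p = 0.067). Treated cells were higher at 7 h by 1.37 (SE 0.06; adjusted p = 3.56e-14) and lower at 1 h, with a log2 change of -0.57 (SE 0.06; adjusted p = 1.90e-07). Regular culture changed by -1.82 between 1 h and 7 h (SE 0.06).

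PER3 (chr1:7784291-7845177, plus strand), a period gene not essential for rhythm in mice, went the other way at 1 h. Its level was 57.2 and 52.4 CPM in treated cells at 7 h, 20.4 and 23.9 CPM in regular culture at 7 h, 43.9 and 40.99 CPM in treated cells at 1 h, and 37.4 and 34.6 CPM in regular culture at 1 h. Both treated groups lay above both regular groups. The log2 change was 1.31 (SE 0.07; limma adjusted p = 7.12e-13) at 7 h and 0.24 (SE 0.07; adjusted p = 0.00909) at 1 h. Between 1 h and 7 h it changed by 0.37 in treated cells (SE 0.07) and by -0.70 in regular culture (SE 0.07). The 1 h call was lost without treated library A (0.19), without regular library B (0.18) and without the intensity trend (adjusted p = 0.102). Exons of UTS2, on the other strand, cover 10.7% of the PER3 exon bases, and the kit does not mark strand. UTS2 was not among the genes listed, so its level is not known here and its part was not tested.

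The cryptochromes, which bind PER proteins in the repressor complex, parted from each other. CRY1 (chr12:106991364-107093549, minus strand) stood at 66.5 and 65.4 CPM in treated cells at 7 h, 29.6 and 29.5 CPM in regular culture at 7 h, 37.0 and 35.7 CPM in treated cells at 1 h, and 47.8 and 43.5 CPM in regular culture at 1 h. No groups overlapped, with treated cells highest at 7 h and regular culture lowest at 7 h. CRY1 rose by 1.16 (SE 0.05; limma adjusted p = 4.72e-14) at 7 h and changed by -0.33 (SE 0.05; adjusted p = 3.53e-05) at 1 h. In time it changed by 0.86 in treated cells and by -0.63 in regular culture. CRY2 (chr11:45847118-45883244, plus strand) had the lowest level per merged exon length of the set in treated cells at 7 h. It stood at 10.7 and 11.3 CPM there and at 9.60 and 9.51 CPM in regular culture at 7 h. At 1 h it had 13.9 and 14.2 CPM in treated cells and 13.6 and 15.2 CPM in regular culture. Its libraries lay higher at 1 h than at 7 h, and the 1 h groups overlapped (-0.03, adjusted p = 0.822). At 7 h it was called higher by 0.20 (SE 0.08; adjusted p = 0.0299), a call lost without treated library B (0.16), regular library A (0.21) or regular library B (0.19), and the value was -0.12 when libraries were scaled to their summed reads (total scaling).

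BHLHE40 (chr3:4979437-4985323, plus strand), which encodes the repressor DEC1 and is also known as a stress-responsive gene, had the highest level per exon length of the 10 in every group. It stood at 279 and 262 CPM in treated cells at 7 h, 78.4 and 78.7 CPM in regular culture at 7 h, 369.8 and 383 CPM in treated cells at 1 h, and 572 and 559 CPM in regular culture at 1 h. The groups lay in the same order as for PER1, with no overlap. Treated cells were higher at 7 h by 1.78 (SE 0.03; limma adjusted p = 1.36e-19) and lower at 1 h (-0.59, SE 0.03; adjusted p = 4.29e-11). Between 1 h and 7 h, treated cells changed by -0.48 (SE 0.03) and regular culture by -2.85 (SE 0.03).

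PER1, PER2, CRY1 and BHLHE40 were thus lower in treated cells at 1 h and higher at 7 h, both past the threshold, as were 7.08% of all tested genes. PER3, NR1D1 and NR1D2 were higher at both times, as were 8.9%. In PER1 and BHLHE40 the treated level at 7 h was below the treated level at 1 h, and the difference between 7 h and 1 h was larger in regular culture.

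NR1D1 and NR1D2 showed another pattern, with treated cells above regular culture at both times and the highest level in treated cells at 7 h. PER3 and DBP had the same group order. NR1D1 (chr17:40092793-40100589, minus strand) stood at 71.6 and 69.2 CPM in treated cells at 7 h, 8.91 and 7.74 CPM in regular culture at 7 h, 16.05 and 19.7 CPM in treated cells at 1 h, and 9.12 and 10.6 CPM in regular culture at 1 h. Each treated group lay above both regular groups, and neighbouring groups did not overlap. Its log2 change at 7 h was 3.07 (SE 0.09; limma adjusted p = 1.42e-16), a fold of 8.42 and the 120th highest of 13028 genes, and at 1 h it was 0.85 (SE 0.09; adjusted p = 4.19e-07). Treated cells rose by 1.98 (SE 0.09) between 1 h and 7 h. Regular culture differed by -0.24 (adjusted p = 0.0314), a call lost without regular 7 h library B (-0.14), without regular 1 h library B (-0.13), under quantile normalization (-0.19), without the intensity trend and with voom weights. NR1D1 shares 263 exon bases, 9.49% of its own, with THRA on the other strand. THRA itself stood at 14.4 and 13.8 CPM in treated cells at 7 h, 14.2 and 14.6 CPM in regular culture at 7 h, 21.6 and 18.3 CPM in treated cells at 1 h and 19.5 and 18.6 CPM in regular culture at 1 h.

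NR1D2 (chr3:23945286-23980617, plus strand) had 144 and 138 CPM in treated cells at 7 h, 25.03 and 30.1 CPM in regular culture at 7 h, 73.4 and 71.2 CPM in treated cells at 1 h, and 56.3 and 51.5 CPM in regular culture at 1 h. The 4 groups did not overlap and stood in the order of NR1D1. Treated cells were higher by 2.36 (SE 0.06; limma adjusted p = 2.39e-17) at 7 h and by 0.42 (SE 0.06; adjusted p = 2.47e-05) at 1 h. Between 1 h and 7 h the treated level changed by 0.97 and the regular level by -0.97.

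DBP (chr19:48630030-48637379, minus strand), the D-box activator, was covered by 161 to 654 reads per library and stood at 24.4 and 20.9 CPM in treated cells at 7 h, 3.76 and 3.55 CPM in regular culture at 7 h, 8.01 and 7.79 CPM in treated cells at 1 h, and 6.81 and 6.81 CPM in regular culture at 1 h. The order was that of NR1D1. It rose by 2.61 (SE 0.10; limma adjusted p = 4.06e-15) at 7 h, and its 1 h difference of 0.21 did not pass (adjusted p = 0.0959) although the groups did not overlap. Under total scaling the 1 h difference was called (0.28). Between 1 h and 7 h DBP changed by 1.51 in treated cells and by -0.89 in regular culture. SPHK2, on the other strand, shares 661 exon bases with DBP, 10.1% of those of DBP. SPHK2 stood at 30.0 and 29.4 CPM in treated cells at 7 h and 21.7 and 22.2 CPM in regular culture at 7 h. At 1 h it stood at 29.6 and 28.7 CPM in treated cells and 23.4 and 25.5 CPM in regular culture. The part of SPHK2 reads in the DBP values was not tested.

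CLOCK (chr4:55427903-55546909, minus strand), the activating subunit, was the 1 gene lower in treated than in regular cells at 7 h. It had 53.5 and 52.8 CPM in treated cells at 7 h, 79.1 and 77.7 CPM in regular culture at 7 h, 76.4 and 73.7 CPM in treated cells at 1 h, and 75.3 and 74.6 CPM in regular culture at 1 h. The first group stood below the other 3, and the 1 h groups overlapped. The log2 change at 7 h was -0.56 (SE 0.04; limma adjusted p = 8.97e-11), the 3096th lowest of 13028. At 1 h it was 0.00 (SE 0.04; adjusted p = 0.988), and regular culture differed by 0.06 between 7 h and 1 h (adjusted p = 0.164).

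**Figure D3:**
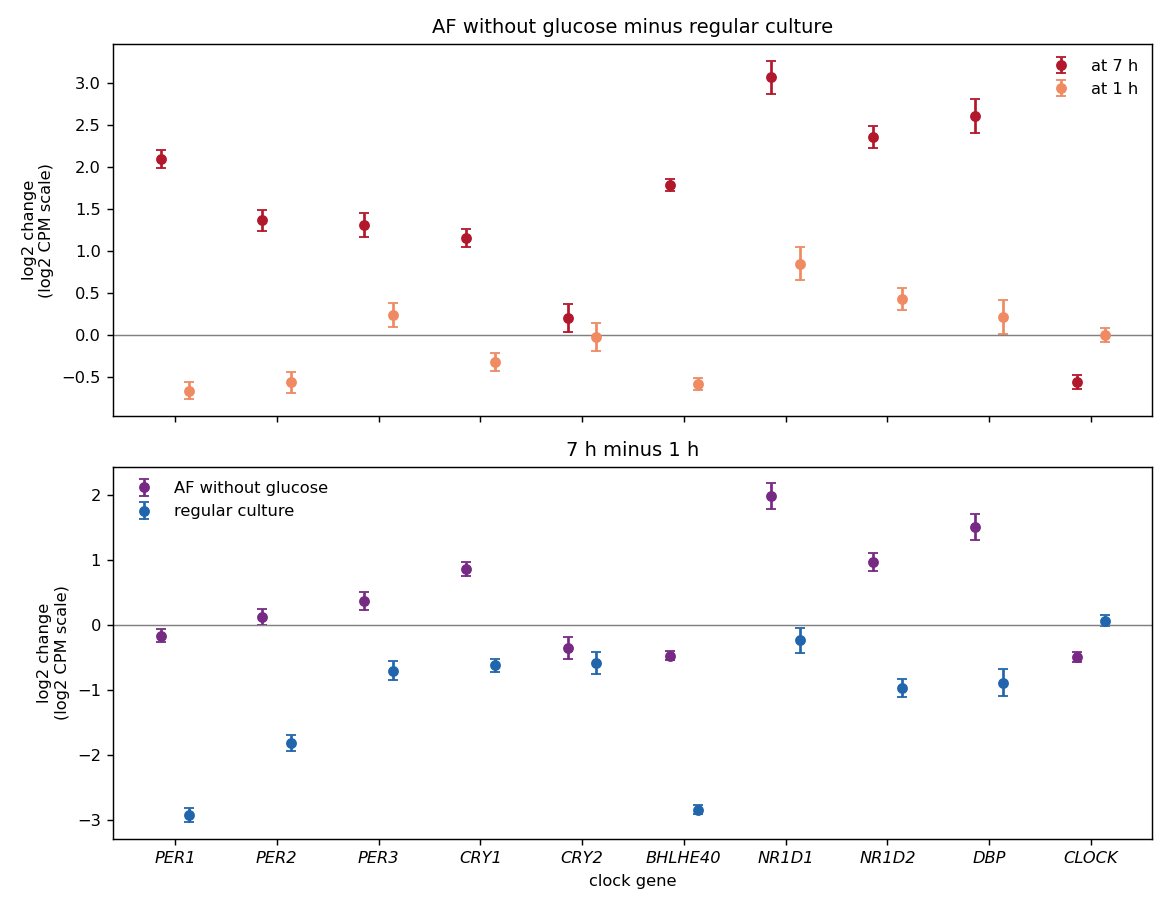
Log2 changes of the 10 clock genes with 95% intervals from limma, above for treated minus regular cells at 7 h and at 1 h, below for 7 h minus 1 h in treated cells and in regular culture. In regular culture every gene but CLOCK lies below 0, and in treated cells the genes range from 1.98 for NR1D1 to -0.50 for CLOCK.

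In regular culture the shift from 1 h to 7 h had 1 direction in all genes that passed, and its log2 changes ran from -2.93 for PER1 to 0.06 for CLOCK. 9 of 10 genes fell in regular culture, against 30.8% of all tested genes, and 3 (PER1, PER2 and BHLHE40) fell at least 2-fold, against 4.7%. None rose (30.7%, and 1.55% at least 2-fold), and the median log2 change of the 10 was -0.80, against 0.00 over all tested genes. In treated cells 5 genes rose (36.9% of all genes) and 4 fell (40.7%), 2 of the rises (NR1D1 and DBP) at least 2-fold (7.14%), and no fall reached 2-fold (8.71%). Under total scaling, which moved the median of all genes to -0.40 in this comparison, the count in treated cells was 4 rises and 5 falls, against 17.3% and 65.7% of all genes. PER3 then moved to 0.00 and PER2 to -0.25.

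The difference between the changes at 7 h and at 1 h was tested directly as an interaction, and 9 of 10 genes passed, against 73.7% of all tested genes. 8 had a higher change at 7 h (36.7% of all genes), each by at least 2-fold (11.2%). Under total scaling 8 were higher (19.3%), 7 of them at least 2-fold (6.89%). The largest differences were 2.76 for PER1 (SE 0.07; limma adjusted p = 2.11e-17), 2.40 for DBP, 2.37 for BHLHE40 and 2.22 for NR1D1. PER2 and NR1D2 each differed by 1.94, CRY1 by 1.48 and PER3 by 1.07. CLOCK differed by -0.56 (37.0% of all genes were called lower, 11.5% by at least 2-fold), and CRY2 by 0.23 (adjusted p = 0.0806). The regular and treated libraries enter both this test and the time shifts above, so the 2 accounts are not independent.

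Levels per kilobase of merged exon set the genes side by side only roughly. Merged exons join all annotated transcripts of a gene (6544 bases for DBP) and are not the length of 1 transcript. Ranks between genes are therefore approximate. In treated cells at 7 h the level was 70.6 CPM per kilobase for BHLHE40, 25.4 for NR1D1, 24.3 for NR1D2 and 13.0 for CRY1, and the other 6 lay between 1.77 (CRY2) and 6.77 (PER3). In regular culture at 7 h it was 20.5 for BHLHE40, 6.67 for CLOCK, 5.84 for CRY1 and 4.74 for NR1D2, and the other 6 lay between 0.558 (DBP) and 3.005 (NR1D1). On this measure CLOCK was the second highest of the 10 in regular culture and the eighth in treated cells at 7 h.

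The 7 h calls were set against the scaling between libraries, since the deposited CPM rest on library sizes that were 0.838 and 0.846 times the summed reads in treated 7 h libraries and 1.04 to 1.09 in the others. Total scaling moved the median of all genes to -0.32 at 7 h and lowered each clock gene by a like amount. The 8 genes at least 2-fold higher kept their direction and call under all 3 scalings, with NR1D1 at 2.76 under total scaling. PER3 (0.99) and CRY1 (0.84) were then under 2-fold, so that 6 of 10 genes were at least 2-fold higher, against 6.94% of all tested genes under that scaling. CRY2 alone changed sign.

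**Figure D4:**
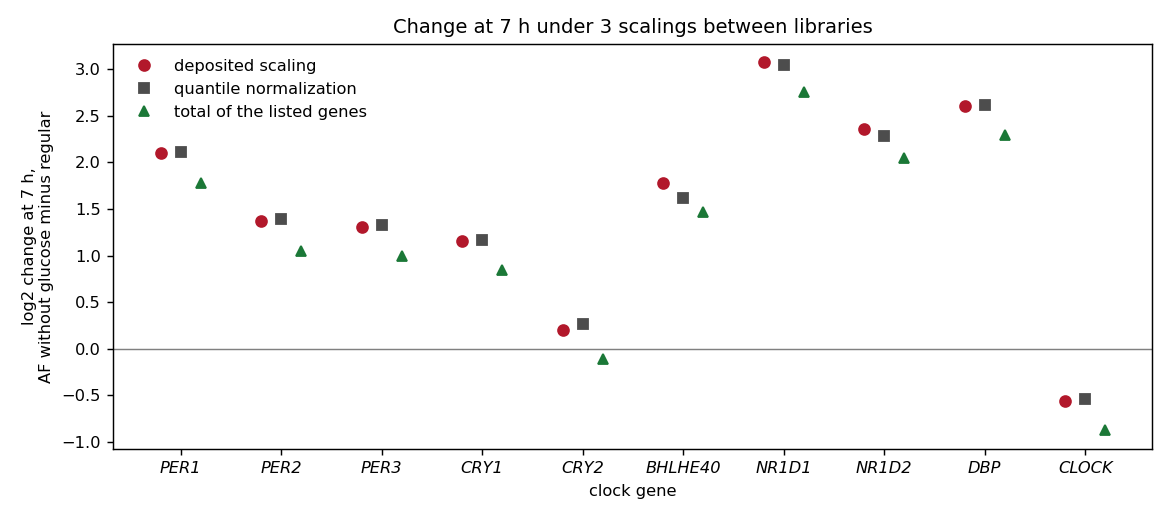
Log2 change at 7 h, treated minus regular, of each clock gene under the deposited scaling, quantile normalization and total scaling (total of the table's genes). NR1D1 lies at 2.76 or above under each scaling, CRY2 falls on either side of 0, and CLOCK lies below 0 throughout.

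Other transcription factors of the clock were measured for 8 of 11 genes listed. At 7 h 5 rose and 3 fell, with a median log2 change of 0.84, and at 1 h 4 rose and 3 fell, with a median of 0.10. Of all tested genes 40.5% rose and 41.1% fell at 7 h, with a median of -0.01, and 17.7% rose and 20.7% fell at 1 h, with a median of 0.01, so the share that fell at 7 h was near that of all genes. NFIL3, a repressor that competes with DBP at D-boxes, stood at 154 and 152 CPM in treated cells at 7 h, 8.41 and 8.54 CPM in regular culture at 7 h, 27.2 and 27.3 CPM in treated cells at 1 h, and 11.6 and 11.5 CPM in regular culture at 1 h. The log2 change was 4.17 (SE 0.05; limma adjusted p = 2.89e-22) at 7 h and 1.24 (SE 0.05; adjusted p = 4.04e-13) at 1 h. CIART, a repressor of CLOCK and BMAL1, rose by 2.41 (SE 0.10) at 7 h and by 1.62 (SE 0.10) at 1 h, with 27.3 and 25.4 CPM in treated cells at 7 h, 4.74 and 5.10 CPM in regular culture at 7 h, 14.9 and 14.1 CPM in treated cells at 1 h and 4.19 and 5.18 CPM in regular culture at 1 h. BHLHE41, which encodes DEC2, rose by 1.34 at 7 h and changed by -0.45 at 1 h, the same signs as BHLHE40.

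The partners of CLOCK did not move together. BMAL1, its main partner and the target of NR1D1, stood at 29.8 and 30.6 CPM in treated cells at 7 h, 20.1 and 21.4 CPM in regular culture at 7 h, 10.9 and 13.8 CPM in treated cells at 1 h, and 17.7 and 15.4 CPM in regular culture at 1 h. It was higher at 7 h by 0.54 (SE 0.09; limma adjusted p = 1.55e-05) and lower at 1 h (-0.43, SE 0.09; adjusted p = 7.80e-04). BMAL2, a paralogue of BMAL1, had 23.8 and 23.0 CPM in treated cells at 7 h. Regular culture at 7 h had 64.3 and 62.9 CPM (-1.44, SE 0.07, limma adjusted p = 1.47e-13). At 1 h BMAL2 had 17.7 and 18.7 CPM in treated cells and 18.8 and 22.1 CPM in regular culture. Between 1 h and 7 h it changed by 0.36 in treated cells (-0.01 under total scaling) and by 1.64 in regular culture. NPAS2, a paralogue of CLOCK, fell by 0.34 at 7 h and by 0.10 at 1 h, and the 1 h call was lost under both other scalings and when treated library A, treated library B or regular library B of the 1 h groups, or regular 7 h library A, was left out, and without the intensity trend. TEF, a relative of DBP, rose by 1.14 at 7 h and by 0.31 at 1 h. HLF, another relative, stood between 1.37 and 3.20 CPM in all libraries and fell by 0.94 at 7 h, and its call at 1 h (0.57) was lost when treated library A, treated library B or regular library A was left out, under quantile normalization and without the intensity trend.

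**Figure D5:**
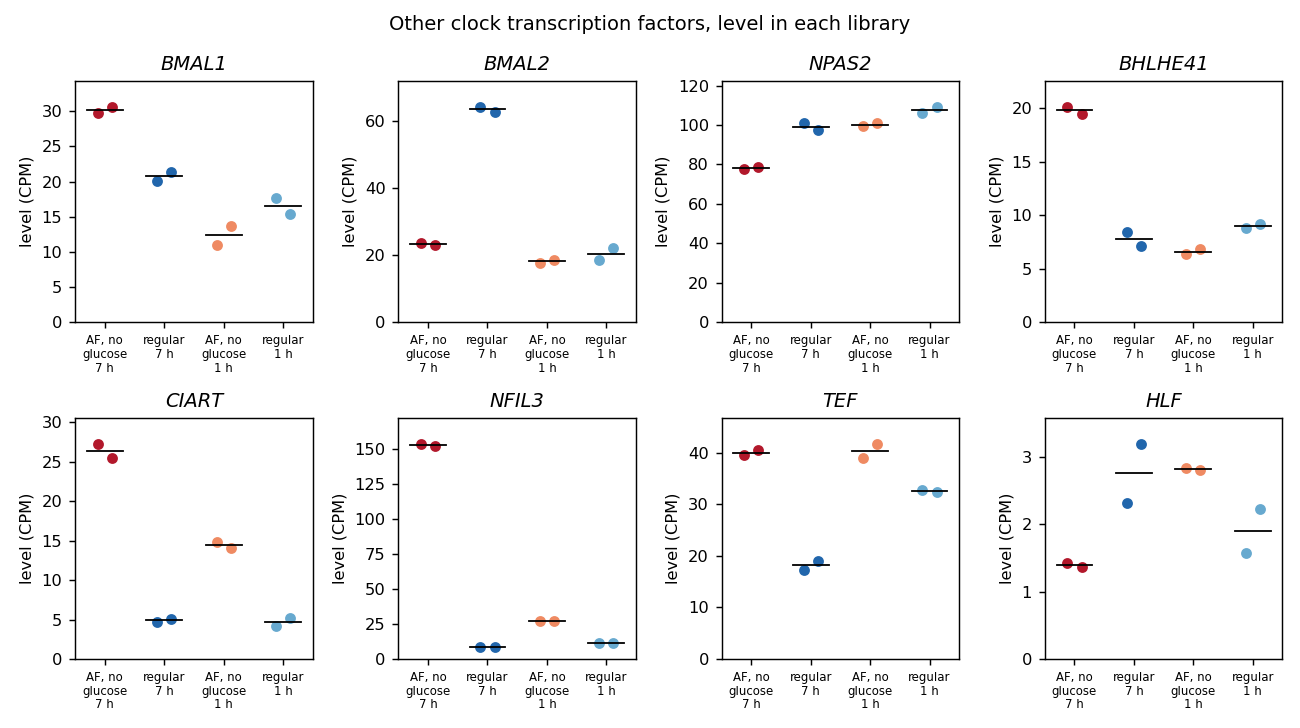
Levels in CPM of 8 other clock transcription factors, with 1 point per library and a line at the group mean. NFIL3, CIART, BMAL1 and BHLHE41 are highest in treated cells at 7 h, whereas BMAL2 is highest in regular culture at 7 h, at 63.6 CPM on average.

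Of 20 enzymes that modify or degrade clock proteins, 16 were measured. At 7 h 9 rose and 5 fell, against 6 and 9 under total scaling, and the median log2 change was 0.17. At 1 h none rose and 7 fell, with a median of -0.12, against 2 and 5 under quantile normalization and 1 and 5 under total scaling. The shares of all tested genes were 40.5% and 41.1% at 7 h and 17.7% and 20.7% at 1 h, and the counts at 7 h were not far from them. Under total scaling the shares were 24.1% and 58.2% at 7 h and 30.2% and 14% at 1 h. Under quantile normalization they were 23.7% and 17.3% at 1 h. At 7 h BTRC, which recognises phosphorylated PER proteins, changed by -0.58 (SE 0.06; limma adjusted p = 5.20e-08). GSK3B, a kinase of several clock proteins, changed by -0.46 at 7 h and -0.25 at 1 h. The largest rises at 7 h were those of DYRK1A (0.88), a kinase of CRY2 in mice, CSNK1A1 (0.87), a casein kinase, and FBXW7 (0.82), an F-box protein of the ubiquitin system. CSNK1D, the casein kinase that phosphorylates PER proteins, changed by -0.71 at 1 h (SE 0.03; adjusted p = 3.67e-13).

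Factors known to act on PER promoters were measured for 10 of 11 genes. At 7 h 8 rose and 1 fell, with a median of 0.34, against 4 and 3 under total scaling. At 1 h 2 rose and 4 fell, with a median of -0.01, against 3 and 4 under both other scalings. Under those scalings 23.7% of all tested genes rose and 17.3% fell (quantile normalization), and 30.2% rose and 14% fell (total scaling). Of all tested genes 40.5% rose and 41.1% fell at 7 h, against 24.1% and 58.2% under total scaling, and 17.7% rose and 20.7% fell at 1 h. SIK1, a kinase that restrains CREB co-activators, had 12.3 and 13.1 CPM in treated cells at 7 h, 1.23 and 1.10 CPM in regular culture at 7 h, 7.56 and 5.69 CPM in treated cells at 1 h, and 13.3 and 12.3 CPM in regular culture at 1 h. It changed by 3.39 (SE 0.13; limma adjusted p = 4.46e-15) at 7 h and by -0.95 at 1 h, the same signs as PER1. CREM, a cAMP-responsive factor, rose by 1.67 and NR3C1, the glucocorticoid receptor, by 1.05 at 7 h. SRF, which drives serum-responsive genes, changed by -0.68 at 7 h and -2.30 at 1 h, and CREB1 by -0.32 at 1 h. The co-activators CRTC3 and CRTC2 rose at 1 h by 0.41 and 0.16, the CRTC2 call being lost when treated library A, treated library B or regular library B was left out.

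Other genes known as clock outputs were measured for 11 of 12, with BMAL1 counted here as well. At 7 h 7 rose, 6 of them at least 2-fold, and 4 fell, with a median of 1.02. At 1 h 3 rose and 8 fell, with a median of -0.27, against 3 and 6 under both other scalings. Under those scalings 23.7% of all tested genes rose and 17.3% fell (quantile normalization), and 30.2% rose and 14% fell (total scaling). Of all tested genes 40.5% rose at 7 h, 10.6% at least 2-fold, and 41.1% fell, with a median of -0.01, and at 1 h 17.7% rose and 20.7% fell, with a median of 0.01. CDKN1A, the cell cycle inhibitor p21, had 333 and 328 CPM in treated cells at 7 h, 57.3 and 59.0 CPM in regular culture at 7 h, 164 and 169 CPM in treated cells at 1 h and 259 and 258 CPM in regular culture at 1 h, the group order of CRY1. NOCT, which encodes nocturnin, changed by 2.38 at 7 h and -0.27 at 1 h, and NAMPT, the rate-limiting enzyme of NAD salvage, rose by 1.66 at 7 h. KLF9, LEO1 and WEE1, a mitotic inhibitor kinase, fell at 7 h by 1.04, 0.90 and 0.37. At 1 h GPCPD1 rose by 1.32, TSC22D3 by 0.54 and PPARA, a lipid-sensing nuclear receptor, by 0.34, while KLF10 changed by -1.26, WEE1 by -0.74 and CDKN1A by -0.64.

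Genes with a similar pattern were sought by Pearson's r of log2 CPM over the 8 libraries, among tested genes averaging at least 5 CPM. The clock genes, pseudogenes, clone names and all symbols ending in P and a number were left out. Some genes above that level, such as USP7, were therefore not searched. The libraries fall into 4 groups, so r is a description. It is given for the 8 clock genes whose group means span at least 1 log2 unit. For PER1 the nearest genes searched included NR4A3 (r = 0.998), SPRY4 (0.996) and NR4A1 (0.995), and for BHLHE40 NINJ1 (0.997) and NR4A1 (0.994). PER2 was nearest to ZBTB21 (0.998), PIM3 (0.996) and NR4A3 (0.996). NR4A3, an orphan nuclear receptor, had on average 33.4 CPM in treated cells at 7 h, 0.867 CPM in regular culture at 7 h, 35.1 CPM in treated cells at 1 h and 147 CPM in regular culture at 1 h. For NR1D1 the nearest genes were DHPS (0.997) and TUBE1 (0.997). Pearson's r takes no account of the size of a change. At 7 h the log2 change of treated against regular cells was 0.33 for DHPS and 2.32 for TUBE1, against 3.07 for NR1D1. DBP was nearest to PAPSS2, RGS2 and PLEKHA4, NR1D2 to NECAB3, MAPRE2 and CRELD1, PER3 to MNS1, MXD4 and KIZ, and CRY1 to GEM, SCML1 and IFITM10, all with r of 0.992 or above.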

How the data were processed

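The 8 RNA libraries were made with the SMART-Seq mRNA HT and Nextera XT kits, per the labels' protocols. The submitters' processing notes name HISAT2, edgeR and GRCh38 as what the authors used. Tool versions, the counting step and any filter by the authors: not given in the sources used here. Values deposited are log2 CPM with a small prior, made by the authors on library sizes that already hold a scaling between libraries. The prior was 0.0522 CPM, and without it 100% of values were whole reads to within 0.1 read. A level of 3 reads, the limit a count of 0 allows, was 0.0626 to 0.129 CPM and covers counting error only.

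The filter asked for 1 CPM or more in 2 or more libraries and kept 13028 of 13036 genes. Their log2 values went into a limma 3.58.1 fit (R 4.3.3) of all 8 libraries, with a mean for each group and a variance trend on intensity. P-values were adjusted over all tested genes by Benjamini-Hochberg, with a threshold of 0.05, in 5 contrasts. Fold changes carry the prior and understate changes of genes with few reads.

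All 10 clock genes are named whatever their result, as are the other clock factors. Of the 3 further lists, the 3 largest changes past the threshold in each direction and treatment contrast are named. Some genes that these rules name are not reported here. The members and lists were chosen with earlier results of these data known. Alternatives were no filter, pseudocounts of 0.5 and 2 CPM, 2 other scalings, limma without trend, voom weights, only the 4 libraries compared, and each library left out.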

Additional observations from a re-analysis of the deposited data

Results flagged for a closer look

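The change of treated against regular cells differed between 7 h and 1 h for 9 of the 10 clock genes by the interaction test (limma adjusted p under 0.05), as for 73.7% of all tested genes. The difference of the log2 changes, 7 h minus 1 h, was 2.76 for PER1, 1.94 for PER2, 1.07 for PER3, 1.48 for CRY1, 2.37 for BHLHE40, 2.22 for NR1D1, 1.94 for NR1D2, 2.40 for DBP and -0.56 for CLOCK. The 7 h and 1 h values behind these differences have opposite signs in PER1, PER2, CRY1 and BHLHE40.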

How the results depend on the processing

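The number of clock genes past the threshold stayed within 1.5 times its value in each of the 5 comparisons under every alternative run. Of 790 values of single genes under alternatives, 766 kept their direction and their side of the threshold, 11 lost a call, 5 gained one and 8 changed sign. Many of these values could not change sign. The log2 change stays the same without the filter, without the trend and with only the 4 libraries compared. It also stays the same when the library left out belongs to a group not compared. Total scaling (libraries scaled to their summed reads) turned CRY2 to -0.12 at 7 h, 0.040 at 1 h and -0.16 in the difference between these, and turned PER2 to -0.25 and PER3 to 0.00 (-0.0037) in treated cells between 1 h and 7 h. At 1 h, leaving out each library in turn gave -0.11 to 0.055 for CRY2, positive without regular library B, and -0.024 to 0.026 for CLOCK, negative without treated library A or regular library B (-0.0057). In these sign changes the main values lay between -0.03 and 0.37, and the cause was not tested. PER2 between 1 h and 7 h in treated cells was called higher under quantile normalization (0.20) and without treated 7 h library B (0.16). CRY2 in the difference was called under quantile normalization (0.34) and without regular 1 h library A (0.31). No paired analysis was possible because the column headings carry no replicate number. With 2 libraries per group, a library left out leaves a lone library that is assumed to vary like the other groups. DBP and CRY2 had the fewest reads at their lowest, 161 and 248 in a library, and the SE of a log2 change was widest for DBP, NR1D1 and CRY2 (0.10, 0.09 and 0.08).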

Other observations

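Correlations among the clock genes over the 8 libraries, which fall into 4 groups, are given as a description. PER1, PER2 and BHLHE40 had Pearson's r of 0.973 to 0.993 with each other. NR1D1, NR1D2 and DBP had r of 0.916 to 0.975 with each other. Between these sets r ran from 0.203 (BHLHE40 with NR1D1) to 0.648 (PER2 with NR1D2). CRY2 had r of 0.799 to 0.906 with the first set and -0.086 to 0.261 with the second. PER3 had 0.670 to 0.741 and 0.828 to 0.982, and CRY1 had 0.510 to 0.678 and 0.828 to 0.934. CLOCK was opposite to NR1D1 (-0.958) and DBP (-0.935).

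Among the markers examined only as a check of the cells, RBFOX3, a neuronal splicing factor, stood at 25.2 and 28.7 CPM in treated cells at 7 h, against 0.438 and 0.574 CPM in regular culture at 7 h. SOX2, a neural stem cell factor, stood at 22.5 and 19.2 CPM in treated cells at 7 h, against 120 and 130 CPM in regular culture at 7 h. Both were singled out after their values were seen.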
